A study of Mus musculus with 10 samples.

Results

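A set of 10 genes of glucocorticoid action was followed in the hippocampus of Tshr-/- mice, which lack the receptor for thyroid-stimulating hormone, and in that of wild-type mice. They are the receptors Nr3c1 and Nr3c2 and the hormone-induced genes Fkbp5, Tsc22d3, Sgk1, Zbtb16, Errfi1, Ddit4, Mt1 and Mt2, chosen by gene name as 10 of the 52636 genes in the deposited table. Each genotype had 5 libraries of whole hippocampus from C57BL/6 mice aged 3 months, and the labels give no treatment. They do not state which part of Tshr is deleted, whether the deletion is limited to a tissue, the sex of the mice, whether a library is 1 mouse, whether the mice were littermates, or whether thyroid hormone was given. Where a library is not a separate mouse, p-values measure only the spread between these libraries.

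Glucocorticoids, in mice mainly corticosterone, enter cells and bind 2 related nuclear receptors. The glucocorticoid receptor waits in the cytoplasm in a complex with heat shock proteins, moves to the nucleus when hormone binds, and switches on genes that carry its palindromic response element. The mineralocorticoid receptor binds corticosterone more tightly, is abundant in the hippocampus, and is therefore occupied at hormone levels that leave much of the glucocorticoid receptor free.

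The element was looked for in RefSeq promoters (GRCm38.p6, the assembly of mm10), which reach from 250 bases before to 50 bases after a transcript start. Of the 10 genes, 8 had promoters that could be used, 16 in all. The palindromic glucocorticoid response element, the arm TGTTCT preceded by its reverse complement at a distance of 3 bases, was found in 1 of the 16, at an internal start of Sgk1, and in 3 of all 32851 promoters of that length (0.00913%). The arm TGTTCT alone, searched on both strands and counted within the palindrome too, was in promoters of Sgk1 and Tsc22d3 and in 19.0% of all promoters. TGCNCNC, a loose form of the metal response element core of the zinc-sensing factor MTF1, is called the core here. It was found 3 times in the Mt1 promoter and 6 times in the Mt2 promoter on either strand, without overlaps. N stands for any base, whereas MTF1 prefers A or G right after TGC. The Mt2 matches GGGAGCA, read on the other strand, and TGCTCTC hold T there. At least 1 core was in 51.0% of all promoters, at least 3 were in 7.10% and at least 6 in 0.225%. A match of letters is a description and not a binding site. The arms of the palindrome were searched letter for letter and within these windows only. Imperfect or more distant elements were not looked for, so a promoter without a match does not show that its gene lacks one. The bases before the first annotated exon at these starts are shown because they hold the palindrome of Sgk1 (chr10:21993640-21993889, plus strand, within the Sgk1 gene and before an exon) and cores of the neighbouring metallothionein genes (Mt1, chr8:94178839-94179081, and Mt2, chr8:94172368-94172617, plus strand, the Mt2 stretch also within an exon of the antisense gene Gm45774). Capitals mark the palindrome in Sgk1 and the cores in Mt1 and Mt2. The other cores of Mt1, and the last of Mt2, lie at or after the transcript start and are not printed.
Sgk1: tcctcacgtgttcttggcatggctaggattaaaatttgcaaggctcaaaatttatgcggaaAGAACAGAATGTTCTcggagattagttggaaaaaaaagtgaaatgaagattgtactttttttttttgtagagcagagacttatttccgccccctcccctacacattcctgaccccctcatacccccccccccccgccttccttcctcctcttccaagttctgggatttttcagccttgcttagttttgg
Mt1: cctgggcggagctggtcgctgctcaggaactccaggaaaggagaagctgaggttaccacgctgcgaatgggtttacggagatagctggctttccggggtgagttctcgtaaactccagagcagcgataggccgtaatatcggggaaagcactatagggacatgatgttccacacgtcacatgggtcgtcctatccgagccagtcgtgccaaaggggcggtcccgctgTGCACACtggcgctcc
Mt2: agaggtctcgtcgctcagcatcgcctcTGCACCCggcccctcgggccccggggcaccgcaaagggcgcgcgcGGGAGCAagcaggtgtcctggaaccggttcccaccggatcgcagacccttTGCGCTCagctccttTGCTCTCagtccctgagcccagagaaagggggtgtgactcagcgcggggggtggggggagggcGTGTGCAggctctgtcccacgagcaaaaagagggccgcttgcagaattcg

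Values are FPKM, fragments scaled by the authors for gene length and library size, so levels of different genes can be compared per length. The libraries held 25744854 to 28332278 reads in Tshr-/- and 23899650 to 33529811 in wild type, rebuilt from FPKM and gene length. Tshr itself was near the detection limit, with 0 to 5 reads per Tshr-/- library and 2 to 12 per wild-type library. Hippocampal neuron markers were present in every library, at a summed 920 to 1399 FPKM in Tshr-/- and 1249 to 1693 FPKM in wild type over 12 genes. Markers of neighbouring tissue set some libraries apart. The thalamus and habenula list of 12 genes, none at 0 in all libraries, stood above the mean of all libraries in Tshr-/- libraries 1 and 2 (by 1.19 and 2.19 on the log2 scale), and also in 2 wild-type libraries, numbered 2 and 5 (by 0.44 and 0.92). Choroid plexus markers were highest in Tshr-/- library 4, at a summed 2280 FPKM against at most 91.7 FPKM in any wild-type library. In bulk tissue, fewer cells of a type and less RNA per cell cannot be told apart.

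All 10 genes were expressed and tested, and none was called, nor was any by limma voom on rebuilt reads. The test was limma on log2(FPKM + 0.1) over 15471 genes with a mean of at least 0.5 FPKM, at an adjusted p below 0.05, and 2 of all genes tested were called (0.0129%). On that scale 6 of the 10 were higher and 4 lower in Tshr-/-, with a median log2 difference of 0.04 beside -0.01 for all genes tested. Without adjustment 3 of the 10 had a p below 0.05, beside 13.0% of all genes tested. These were Mt1 and Mt2, higher in Tshr-/- (4.65% of all genes tested were higher at that p), and Zbtb16, lower in Tshr-/- (8.38%). For none of the 10 did the genotypes separate completely, which 2.68% of all genes tested did.

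**Figure D1:**
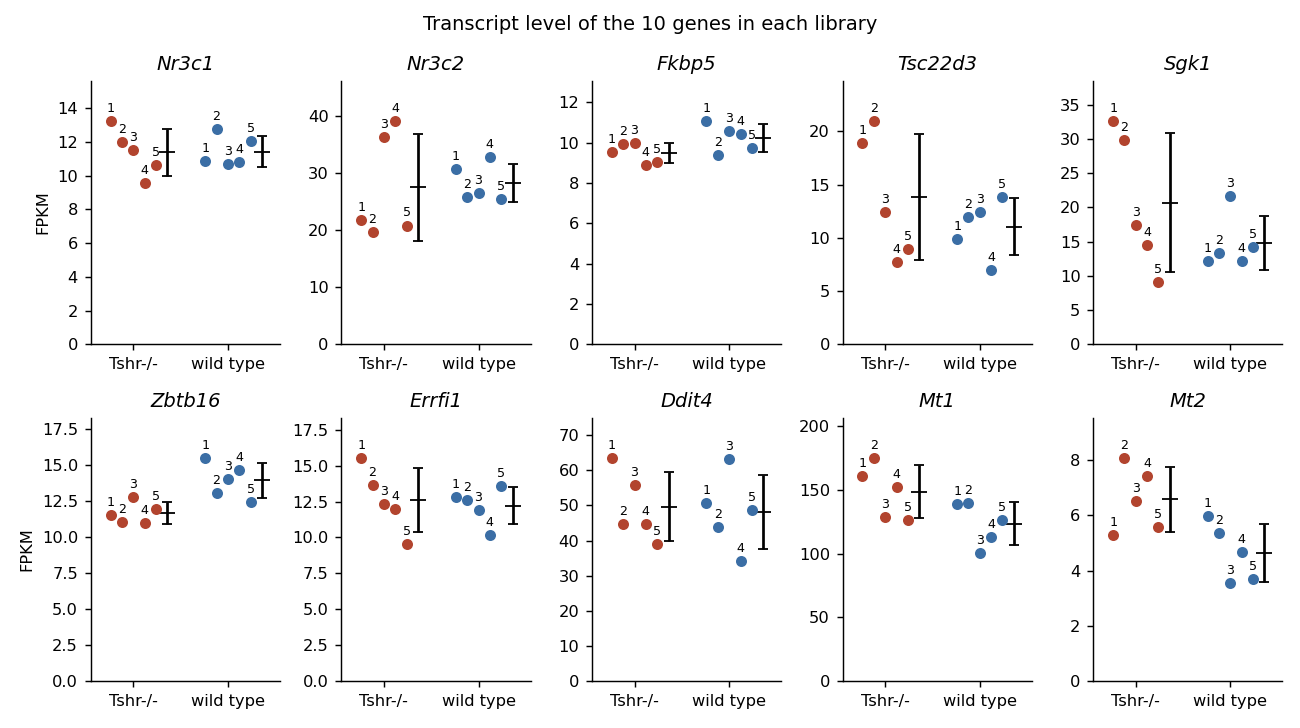
Level of each of the 10 genes in FPKM (vertical axis, from 0) in the 5 Tshr-/- and 5 wild-type libraries. Each point is a library with its replicate number, and the bar beside each group is its mean and SD. The groups overlap in every panel, and Sgk1 and Tsc22d3 are highest in Tshr-/- libraries 1 and 2.

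Per length, Mt1 was the most abundant of the 10 (136 FPKM over all libraries, 98.4th percentile of genes tested), followed by Ddit4 (48.9), Nr3c2 (27.8) and Sgk1 (17.7). Zbtb16, Errfi1, Tsc22d3, Nr3c1 and Fkbp5 lay between 12.8 and 9.85 FPKM. Of these 5 in that order, each of the first 3 was above the next in only 5 or 6 of 10 libraries and lay within the spread between libraries, whereas Nr3c1 was above Fkbp5 in 9 of 10 by a mean of 1.57 FPKM, more than the SD of either gene in either genotype (at most 1.40 FPKM). Mt2 was lowest, at 5.62 FPKM, still above the median tested gene at 5.05 FPKM. The genes differed in how much libraries varied. The coefficient of variation was smallest for Fkbp5 (5.16% in Tshr-/- and 6.65% in wild type) and largest for Sgk1 (49.0% in Tshr-/- and 26.8% in wild type) and Tsc22d3 (42.9% in Tshr-/- and 24.2% in wild type).

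The receptors come first. Nr3c1 (ENSMUSG00000024431, chromosome 18, 39410545 to 39491301, minus strand, mm10) encodes the glucocorticoid receptor. It had 13.2, 12.03, 11.5, 9.55 and 10.6 FPKM in Tshr-/- libraries 1 to 5, against 10.9, 12.8, 10.7, 10.8 and 12.04 FPKM in wild-type libraries 1 to 5. The ranges cover each other, and the log2 difference was -0.01 ± 0.09 (SE, 95% interval -0.21 to 0.18, limma adjusted p = 0.974).

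Nr3c2 (ENSMUSG00000031618, chromosome 8, 76899442 to 77245012, plus strand) encodes the mineralocorticoid receptor. It had 21.8, 19.6, 36.2, 39.0 and 20.8 FPKM in Tshr-/- libraries 1 to 5, against 30.7, 25.8, 26.5, 32.8 and 25.3 FPKM in wild type. Tshr-/- libraries 3 and 4 lay above all wild-type libraries and Tshr-/- libraries 1, 2 and 5 below all of them, so the mutant mean of 27.5 ± 9.34 FPKM (SD, n = 5) falls where no mutant library lies, beside 28.2 ± 3.31 FPKM in wild type (SD, n = 5). The log2 difference was -0.09 ± 0.20 (SE, 95% interval -0.53 to 0.34, limma adjusted p = 0.871). The log2 level of Nr3c2 and the mean level of the hippocampal neuron list, each taken relative to its genotype mean, had a Pearson r of 0.736 over the 10 libraries (exact permutation p = 0.0415, 0.317 adjusted over 90 pairs of a gene and a marker list; Spearman rho 0.806, exact permutation p = 0.0283, 0.253 adjusted). The r was 0.648 without the 2 libraries farthest from the median of Nr3c2. Nr3c1 went against the same list (Pearson r -0.699, exact permutation p = 0.0466, 0.317 adjusted, Spearman rho -0.612, exact permutation p = 0.113, 0.444 adjusted). Nr3c2 and the thalamus and habenula list had a Pearson r of -0.655 (exact permutation p = 0.0804, 0.317 adjusted, Spearman rho -0.636, exact permutation p = 0.0625, 0.331 adjusted). None of these relations passes the adjustment. Gm10649, an overlapping gene on the other strand, was listed at a mean of 1.15 FPKM. Reads of Nr3c2 may include or lack a small part where both overlap.

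The ratio of mineralocorticoid to glucocorticoid receptor transcripts was 1.64, 1.63, 3.14, 4.09 and 1.95 in Tshr-/- libraries 1 to 5, against 2.82, 2.02, 2.48, 3.02 and 2.11 in wild type. Transcripts of Nr3c2 exceeded those of Nr3c1 per length in all 10 libraries. The mean ratio was 2.49 ± 1.09 in Tshr-/- and 2.49 ± 0.436 in wild type (SD, n = 5 each; log2 difference of the ratio -0.08, 2-sided exact permutation p = 0.77, with 0.00794 the smallest p that 5 against 5 allow). It was again Tshr-/- libraries 3 and 4 that lay above the wild-type range and libraries 1, 2 and 5 below it. The receptors went opposite ways with the hippocampal neuron list, as given above, and the part of that list in the ratio was not tested.

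Among induced genes, Fkbp5 (ENSMUSG00000024222, chromosome 17, 28399095 to 28517524, minus strand) encodes a cochaperone that lowers the hormone affinity of the glucocorticoid receptor and closes a feedback loop on it. It had 9.52, 9.93, 9.96, 8.91 and 9.04 FPKM in Tshr-/- libraries 1 to 5, against 11.1, 9.38, 10.6, 10.4 and 9.71 FPKM in wild type. All Tshr-/- libraries lay below the wild-type mean, but only 2 lay below the lowest wild-type library. The log2 difference was -0.11 ± 0.06 (SE, 95% interval -0.24 to 0.02, limma adjusted p = 0.461).

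Zbtb16 (ENSMUSG00000066687, chromosome 9, 48654297 to 48836222, minus strand) encodes PLZF, a zinc finger transcription factor. It had 11.6, 11.0, 12.8, 11.0 and 11.9 FPKM in Tshr-/- libraries 1 to 5, against 15.5, 13.1, 14.0, 14.7 and 12.4 FPKM in wild type. Of the Tshr-/- libraries 4 lay below the whole wild-type range, and library 3 lay above wild-type library 5 only. The log2 difference was -0.25 ± 0.07 (SE, 95% interval -0.41 to -0.10, limma adjusted p = 0.2), which does not pass. Relative to genotype means, Zbtb16 went with the hippocampal neuron list (Pearson r 0.785, exact permutation p = 0.0123, 0.297 adjusted; Spearman rho 0.648, exact permutation p = 0.0369, 0.253 adjusted; r 0.720 without 2 libraries). It went against the meninges and fibroblast list (Pearson r -0.812, exact permutation p = 0.0132, 0.297 adjusted; Spearman rho -0.794, exact permutation p = 0.0156, 0.253 adjusted; r -0.710 without 2 libraries), against the oligodendrocyte list (Pearson r -0.724, exact permutation p = 0.0265, 0.317 adjusted; Spearman rho -0.733, exact permutation p = 0.0238, 0.253 adjusted; r -0.952 without 2 libraries) and against the thalamus and habenula list (Pearson r -0.718, exact permutation p = 0.0281, 0.317 adjusted; Spearman rho -0.697, exact permutation p = 0.0338, 0.253 adjusted; r -0.662 without 2 libraries). The summed level of the neuron list was 920 to 1399 FPKM in Tshr-/- and 1249 to 1693 FPKM in wild type, and that of the meninges list 24.4 to 61.9 FPKM in Tshr-/- and 17.0 to 32.8 FPKM in wild type. Their part in the Zbtb16 difference was not tested. Among the 6 libraries lowest in thalamic transcripts its log2 difference was -0.31 (limma adjusted p = 0.383).

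Sgk1 (ENSMUSG00000019970, chromosome 10, 21882184 to 21999903, plus strand) encodes a kinase that acts on ion channels and transporters. It had 32.6, 29.9, 17.5, 14.5 and 9.05 FPKM in Tshr-/- libraries 1 to 5, against 12.2, 13.4, 21.6, 12.2 and 14.3 FPKM in wild type. The mutant libraries held both the highest and the lowest values of the series, and libraries 1 and 2 lay above all wild-type libraries. The log2 difference was 0.37 ± 0.32 (SE, 95% interval -0.34 to 1.08, limma adjusted p = 0.655).

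Tsc22d3 (ENSMUSG00000031431, chromosome X, 140539528 to 140600659, minus strand) encodes GILZ, a leucine zipper protein that carries part of the anti-inflammatory action of glucocorticoids. It had 18.9, 21.0, 12.4, 7.70 and 8.94 FPKM in Tshr-/- libraries 1 to 5, against 9.87, 11.996, 12.4, 7.01 and 13.9 FPKM in wild type. Again Tshr-/- libraries 1 and 2 lay above all wild-type libraries, while the other Tshr-/- libraries lay within the wild-type range. The log2 difference was 0.25 ± 0.29 (SE, 95% interval -0.38 to 0.88, limma adjusted p = 0.75).

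Tshr-/- libraries 1 and 2, in which Sgk1 and Tsc22d3 stood highest, were also highest in thalamic and habenular markers, at a summed 151 and 269 FPKM. The part of these markers in both genes was not tested. Among the 6 libraries lowest in these markers, 3 of each genotype, the log2 difference was -0.16 for Sgk1 and -0.0021 for Tsc22d3. That choice, made after the values were seen, leaves out the very libraries in which both genes were highest, so a smaller difference follows from it. Nor does it balance the markers. Their summed level was 42.4 to 60.5 FPKM in the Tshr-/- libraries kept and 25.0 to 33.8 FPKM in the wild-type libraries kept. Tshr-/- library 4, highest in choroid plexus markers, is among those kept. The log2 difference of Sgk1 was 0.17 without Tshr-/- library 1, 0.20 without Tshr-/- library 2 and 0.63 without Tshr-/- library 5. That of Tsc22d3 was 0.11, 0.07, 0.43 and 0.38 without Tshr-/- libraries 1, 2, 4 and 5 in turn, and 0.10 without wild-type library 4. Relative to genotype means, Tsc22d3 and the thalamus and habenula list had a Pearson r of 0.834 (exact permutation p = 0.00861, 0.297 adjusted; Spearman rho 0.818, exact permutation p = 0.00896, 0.253 adjusted; r 0.840 without 2 libraries). Sgk1 and that list had a Pearson r of 0.585 (exact permutation p = 0.121, 0.425 adjusted; Spearman rho 0.612, exact permutation p = 0.0871, 0.435 adjusted; r 0.511 without 2 libraries). Sgk1 went against the microglia list, with a Pearson r of -0.714 (exact permutation p = 0.0558, 0.317 adjusted; Spearman rho -0.842, exact permutation p = 0.0066, 0.253 adjusted; r -0.894 without 2 libraries), and so did Tsc22d3, with a Pearson r of -0.686 (exact permutation p = 0.0474, 0.317 adjusted; Spearman rho -0.818, exact permutation p = 0.0107, 0.253 adjusted; r -0.779 without 2 libraries). None of these relations passes the adjustment.

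Errfi1 (ENSMUSG00000028967, chromosome 4, 150853919 to 150868892, plus strand) encodes a feedback inhibitor of epidermal growth factor receptors. It had 15.5, 13.7, 12.3, 11.99 and 9.55 FPKM in Tshr-/- libraries 1 to 5, against 12.8, 12.6, 11.9, 10.2 and 13.6 FPKM in wild type. The wild-type range lay within the mutant range, and the log2 difference was 0.03 ± 0.12 (SE, 95% interval -0.23 to 0.30, limma adjusted p = 0.931).

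Ddit4 (ENSMUSG00000020108, chromosome 10, 59949669 to 59951834, minus strand) encodes REDD1, a stress-induced inhibitor of the growth kinase mTOR complex. It had 63.6, 44.8, 56.0, 44.7 and 39.1 FPKM in Tshr-/- libraries 1 to 5, against 50.7, 43.8, 63.1, 34.3 and 48.6 FPKM in wild type. The ranges all but coincide, and the log2 difference was 0.05 ± 0.17 (SE, 95% interval -0.32 to 0.42, limma adjusted p = 0.923).

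The metallothioneins Mt1 and Mt2 are small zinc-binding proteins, induced by glucocorticoids and by metals and made in brain mainly by astrocytes, and their genes are neighbours on chromosome 8. Mt1 (ENSMUSG00000031765, 94179082 to 94180327, plus strand) had 161, 175, 129, 152 and 126 FPKM in Tshr-/- libraries 1 to 5, against 139, 140, 100.1, 113 and 126 FPKM in wild type. Tshr-/- libraries 1, 2 and 4 lay above all wild-type libraries, and the other Tshr-/- libraries lay within the wild-type range. The mean was 149 ± 20.9 FPKM in Tshr-/- and 124 ± 17.2 FPKM in wild type (SD, n = 5 each), a log2 difference of 0.27 ± 0.12 (SE, 95% interval 0.01 to 0.52, limma adjusted p = 0.37).

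Mt2 (ENSMUSG00000031762, 94172664 to 94173568, plus strand) had 5.27, 8.09, 6.53, 7.43 and 5.59 FPKM in Tshr-/- libraries 1 to 5, against 6.00, 5.36, 3.56, 4.66 and 3.69 FPKM in wild type. Here Tshr-/- libraries 2, 3 and 4 lay above the wild-type range, and all 5 lay above the wild-type mean. The log2 difference was 0.50 ± 0.16 (SE, 95% interval 0.14 to 0.86, limma adjusted p = 0.258), the largest of the 10 in size, and it did not pass. Mt2 rested on 48 to 140 reads per library and Mt1 on 2863 to 6429. Annotated transcripts of both genes (GENCODE vM21) shared no exact run longer than 20 bases. Gm45774, antisense to Mt2, was listed at a mean of 0.325 FPKM and its reads cannot be told from those of Mt2 without strand. Reads that fall on both genes may have been added to Mt2 or left out of it. The level of Mt2 and its ratio to Mt1 carry this limit.

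Relative to genotype means, Mt1 went with the astrocyte marker list (Pearson r 0.842, exact permutation p = 0.00507, 0.297 adjusted; Spearman rho 0.818, exact permutation p = 0.0112, 0.253 adjusted; r 0.764 without 2 libraries), the smallest p of the 90 pairs of a gene and a marker list. The summed level of the 12 astrocyte markers, none at 0 in all libraries, was 683 to 744 FPKM in Tshr-/- and 692 to 785 FPKM in wild type. Mt2 and the astrocyte list had a Pearson r of 0.474 (exact permutation p = 0.196, 0.495 adjusted, Spearman rho 0.382, exact permutation p = 0.291, 0.605 adjusted). Mt1 also went with the thalamus and habenula list (Pearson r 0.682, exact permutation p = 0.0462, 0.317 adjusted, Spearman rho 0.6, exact permutation p = 0.0933, 0.438 adjusted). It went against the immediate early list (Pearson r -0.633, exact permutation p = 0.0715, 0.317 adjusted, Spearman rho -0.733, exact permutation p = 0.0311, 0.253 adjusted). The part of these lists in the Mt1 difference was not tested. Among the 6 libraries lowest in thalamic transcripts the Mt1 log2 difference was 0.22 (limma adjusted p = 0.646). The ratio of Mt1 to Mt2 was 30.5, 21.7, 19.8, 20.5 and 22.6 in Tshr-/- libraries 1 to 5, against 23.2, 26.1, 28.1, 24.2 and 34.3 in wild type. Apart from library 1 the Tshr-/- ratios lay below all wild-type ratios. The log2 difference of the ratio was -0.24 (2-sided exact permutation p = 0.143). With each library left out in turn it was -0.35 to -0.16 (2-sided exact permutation p of 0.0159 to 0.286), and the lowest p was that without Tshr-/- library 1, whose removal separates the genotypes by construction.

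**Figure D2:**
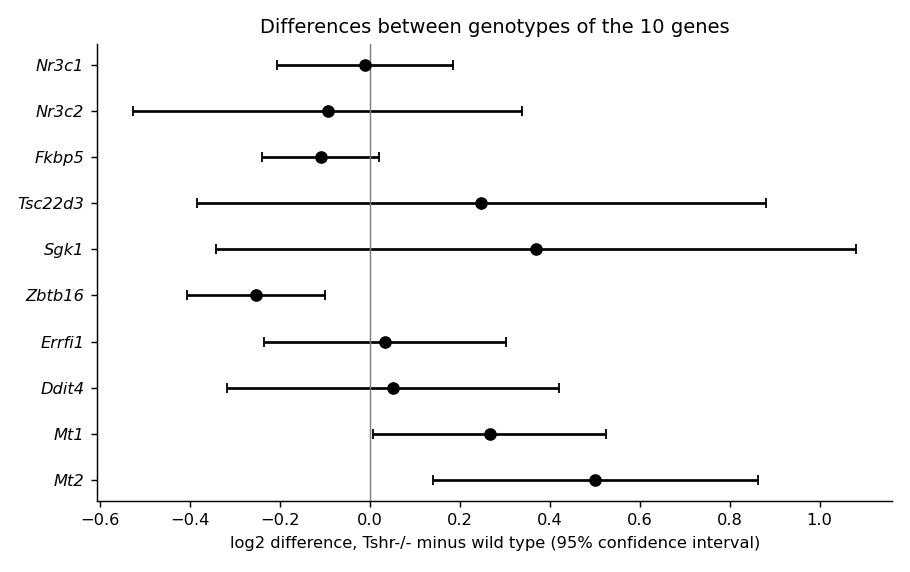
Log2 difference of each of the 10 genes, Tshr-/- minus wild type, with its 95% confidence interval from limma. The intervals of Mt1, Mt2 and Zbtb16 leave out 0, and none of the 3 passed after adjustment over 15471 genes.

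Whether the genes moved together from library to library was asked over the 45 pairs, on log2 levels relative to genotype means. No pair passed the adjustment by Pearson or Spearman, and 6 pairs had an unadjusted Pearson p below 0.05. All 6 were positive and lay among Nr3c1, Tsc22d3, Sgk1, Errfi1 and Ddit4. Of these genes, Nr3c1 (Pearson r 0.732, exact permutation p = 0.0335, 0.317 adjusted) and Errfi1 (Pearson r 0.699, exact permutation p = 0.0435, 0.317 adjusted) also went with the thalamus and habenula list, as Tsc22d3 did. Their Spearman rho with it was 0.588 for Nr3c1 (exact permutation p = 0.102, 0.438 adjusted) and 0.758 for Errfi1 (exact permutation p = 0.0231, 0.253 adjusted), r was 0.792 for Nr3c1 and 0.740 for Errfi1 without 2 libraries, and the part of these markers in the pairs was not tested. In all, 13 of the 90 pairs of a gene and a marker list had an unadjusted Pearson p below 0.05, 5 of them with that list, and none passed the adjustment. Tsc22d3 and Sgk1 had a Pearson r of 0.809 (exact permutation p = 0.0251, 0.32 adjusted; Spearman rho 0.903, exact permutation p = 0.00688, 0.232 adjusted). The r was 0.904 without the 2 libraries farthest from the median of Tsc22d3. Tsc22d3 and Errfi1 had a Pearson r of 0.795 (exact permutation p = 0.0148, 0.32 adjusted; Spearman rho 0.806, exact permutation p = 0.0188, 0.232 adjusted; r 0.853 without 2 libraries). Sgk1 and Errfi1 had a Pearson r of 0.767 (exact permutation p = 0.0303, 0.32 adjusted, Spearman rho 0.733, exact permutation p = 0.046, 0.304 adjusted). It was 0.343 without Tshr-/- libraries 1 and 5, the highest and the lowest in Sgk1. Leaving out the extremes of a gene narrows its range, so a lower r can follow from that choice alone. Without the same 2 libraries r fell from 0.646 to 0.405 for Sgk1 and Ddit4 (Spearman rho 0.624, exact permutation p = 0.079). It fell from 0.664 to 0.426 for Errfi1 and Ddit4 (Spearman rho 0.552, exact permutation p = 0.13). Nr3c1 and Tsc22d3 had a Pearson r of 0.797 (exact permutation p = 0.0184, 0.32 adjusted), and 0.642 without Tshr-/- libraries 1 and 4. Mt1 and Mt2 had a Pearson r of 0.613 (exact permutation p = 0.0809, 0.364 adjusted; Spearman rho 0.733, exact permutation p = 0.0292, 0.263 adjusted), and 0.379 without Tshr-/- library 5 and wild-type library 3. Fkbp5 and Zbtb16 had a Pearson r of 0.691 (exact permutation p = 0.054, 0.32 adjusted, Spearman rho 0.782, exact permutation p = 0.0206, 0.232 adjusted), and 0.611 without Tshr-/- library 4 and wild-type library 2. Between the highest and the lowest library Fkbp5 varied 1.24-fold (8.91 to 11.1 FPKM), Sgk1 3.61-fold and Tsc22d3 2.99-fold. The causes of this variation were not tested.

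**Figure D3:**
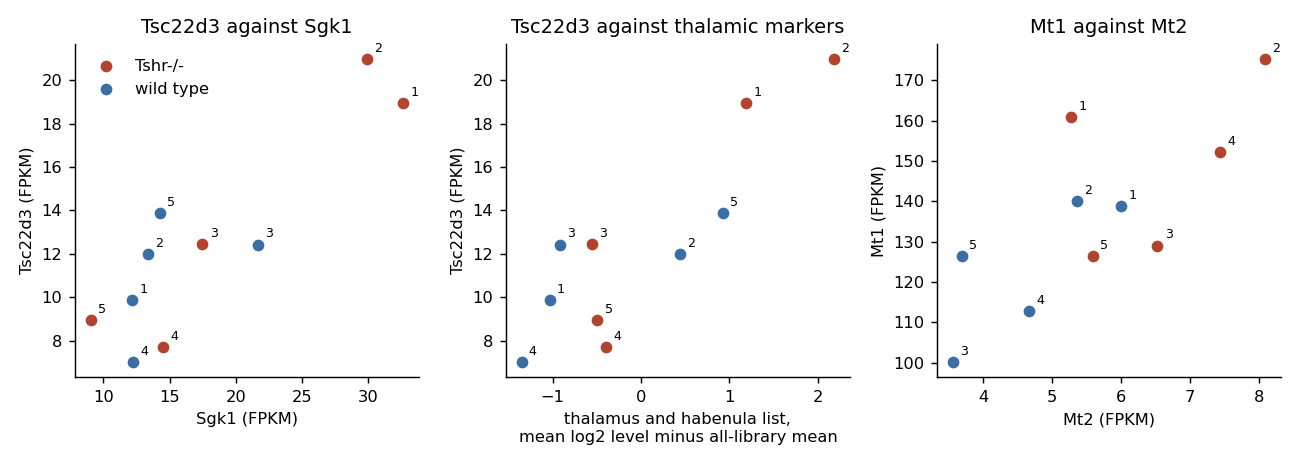
Each point is a library with its replicate number, Tshr-/- in red and wild type in blue. Tsc22d3 is plotted against Sgk1 (left, FPKM) and against the thalamus and habenula marker list (middle, mean log2 level minus the mean of all libraries), and Mt1 against Mt2 (right, FPKM). Tshr-/- libraries 1 and 2 are highest in the left and middle panels.

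For each of the 10, the protein-coding gene with the most similar pattern was taken by Pearson r over the 10 libraries, relative to genotype means, among 13018 others tested. These were Tmod2 for Nr3c1 (r 0.989), Acot5 for Nr3c2 (0.976), Inpp5j for Fkbp5 (0.941), Hrh2 for Tsc22d3 (0.972), Yars2 for Sgk1 (0.959), Fam212a for Zbtb16 (0.957), Rrp8 for Errfi1 (0.943), Rsbn1 for Ddit4 (0.897), Churc1 for Mt1 (0.970) and Trmt112 for Mt2 (0.915). As the highest of so many, these r values are a description. No gene of the 10 was the closest to another of the 10.

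The rest of the pathway was followed through 6 further lists, in none of which a gene was called. The receptor needs chaperones to hold a shape that binds hormone. All 18 chaperone and cochaperone genes were lower in Tshr-/-, and 15 of them with quantile normalization or with limma voom on rebuilt reads. The list had a median log2 difference of -0.15 beside -0.01 for all genes tested, which was -0.065 beside -0.0029 with quantile normalization and -0.080 beside 0.060 with limma voom, and 9 genes had an unadjusted p below 0.05 (8.38% of all genes tested were lower at that p). The hippocampal neuron markers, whose summed levels are given above, were also lower for 11 of 12, and their part in this list was not tested. Stip1, which hands receptors from HSP70 to HSP90, had 72.7 ± 3.58 FPKM in Tshr-/- and 88.3 ± 8.73 FPKM in wild type (SD, n = 5 each; limma adjusted p = 0.187). Ahsa1, which speeds the ATPase of HSP90, had 19.1 ± 0.835 FPKM in Tshr-/- and 22.5 ± 1.51 FPKM in wild type (limma adjusted p = 0.173). Hspa8, a constitutive HSP70, had 270.1 ± 14.2 FPKM in Tshr-/- and 313 ± 19.2 FPKM in wild type (limma adjusted p = 0.207). Hspa1b, a heat-induced HSP70 whose reads may be shared with its near-identical neighbour Hspa1a, had 4.20 ± 0.809 FPKM in Tshr-/- and 6.17 ± 1.25 FPKM in wild type (limma adjusted p = 0.23).

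Receptor cofactors were lower for 15 of 20, with a median log2 difference of -0.10 beside -0.01 for all genes tested. With limma voom 13 of 20 were lower and the median was -0.026, beside 0.060 for all genes tested. In the main fit 4 of the 20 (20%) were lower at an unadjusted p below 0.05, beside 8.38% of all genes tested, and none was higher. Among them were the chromatin remodelling subunits Smarca4 (25.0 ± 1.59 FPKM in Tshr-/- and 29.2 ± 2.29 FPKM in wild type) and Arid1a (17.8 ± 1.77 FPKM in Tshr-/- and 20.6 ± 1.80 FPKM in wild type) and the coactivator Ncoa1 (19.9 ± 1.11 FPKM in Tshr-/- and 21.6 ± 0.888 FPKM in wild type), SD with n = 5 each. The limma adjusted p of these 3 ranged from 0.222 to 0.372.

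Of a list of 37 other genes, taken as induced by glucocorticoids in one tissue or another, 36 were tested. They split, 22 higher and 14 lower in Tshr-/-, with a median log2 difference of 0.11, and with 5 higher and 6 lower at an unadjusted p below 0.05. Of all genes tested, 4.65% were higher and 8.38% lower at that p. Among the 6 libraries lowest in thalamic transcripts the split was 13 higher and 21 lower of 34 tested. The median was 0.019 without Tshr-/- library 2 (18 higher, 17 lower), 0.059 without Tshr-/- library 1 and 0.026 without wild-type library 4, and 0.19 with limma voom. The median of all genes tested was 0.060 with limma voom and -0.01 in the main fit. Ccnd1, a cell cycle regulator that glucocorticoids lower in many cell types, had 5.15 ± 0.430 FPKM in Tshr-/- and 7.26 ± 0.898 FPKM in wild type, without overlap of the libraries (limma adjusted p = 0.106). Although on this list, it is thus no plain induced gene. It counts among the 14 lower genes and among the 6 lower at an unadjusted p below 0.05. Cebpb, a transcription factor that neuronal activity also induces, had 6.61 ± 1.53 FPKM in Tshr-/- and 11.2 ± 1.91 FPKM in wild type (limma adjusted p = 0.138). Txnip, an inhibitor of thioredoxin, had 7.92 ± 1.80 FPKM in Tshr-/- and 4.64 ± 0.951 FPKM in wild type (limma adjusted p = 0.176). Glul, the glutamine synthetase of astrocytes, had 371 ± 21.6 FPKM in Tshr-/- and 431 ± 19.9 FPKM in wild type (limma adjusted p = 0.194). Immediate early genes were lower in these Tshr-/- libraries, with a summed level over 12 genes of 119 to 197 FPKM in Tshr-/- and 228 to 369 FPKM in wild type. Their part in the levels of activity-induced members of the list was not tested.

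Of 17 genes of the stress axis and of steroid access to cells, 7 were expressed enough to be tested. Of these, 4 were higher and 3 lower in Tshr-/-, with a median log2 difference of 0.0048. At an unadjusted p below 0.05, 1 was lower in Tshr-/-, beside 8.38% of all genes tested. Crhbp, the binding protein that sequesters corticotropin-releasing hormone, had 8.13 ± 1.84 FPKM in Tshr-/- and 14.0 ± 1.78 FPKM in wild type (SD, n = 5 each). Its libraries did not overlap, at 5.98 to 11.1 FPKM in Tshr-/- and 11.8 to 16.8 FPKM in wild type, yet the log2 difference of -0.80 ± 0.14 (SE) did not pass (limma adjusted p = 0.089). It passed without Tshr-/- library 5 (limma adjusted p = 0.0359) and in a fit that blocked on replicate number (0.0352), and in none of the other 18 alternatives (adjusted p up to 0.363). Hsd11b1, which regenerates active corticosterone within cells, had 7.37 ± 0.834 FPKM in Tshr-/- and 6.38 ± 0.674 FPKM in wild type (limma adjusted p = 0.385). H6pd, which supplies its cofactor, had 1.57 ± 0.0968 FPKM in Tshr-/- and 1.44 ± 0.0829 FPKM in wild type (0.552). Crh itself had 0.963 ± 0.622 FPKM in Tshr-/- and 1.28 ± 0.392 FPKM in wild type (limma adjusted p = 0.556).

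Metallothionein and zinc genes beyond Mt1 and Mt2 were higher for 12 and lower for 7 of 19 tested, with a median log2 difference of 0.02. In each direction 1 had an unadjusted p below 0.05, beside 4.65% of all genes tested higher and 8.38% lower. Slc30a1, the zinc exporter that the same metal-sensing factor induces, had 7.24 ± 0.335 FPKM in Tshr-/- and 6.40 ± 0.351 FPKM in wild type (SD, n = 5 each; limma adjusted p = 0.238). Slc30a3, the zinc transporter of synaptic vesicles, had 31.2 ± 7.20 FPKM in Tshr-/- and 42.0 ± 7.85 FPKM in wild type (limma adjusted p = 0.329). The manganese and zinc exporter Slc30a10 (3.49 ± 0.407 FPKM in Tshr-/- and 3.10 ± 0.378 FPKM in wild type) and Mtf1, the metal-sensing factor (3.24 ± 0.238 FPKM in Tshr-/- and 3.46 ± 0.125 FPKM in wild type), had limma adjusted p of 0.505 and 0.532. Among partners of SGK1, DDIT4 and ERRFI1, 8 were higher and 15 lower of 23 tested, with a median log2 difference of -0.06 beside -0.01 for all genes tested. With limma voom on rebuilt reads 13 were higher and 10 lower, with a median of 0.0059 beside 0.060 for all genes tested. In the main fit 1 was higher and 4 were lower at an unadjusted p below 0.05, beside 4.65% of all genes tested higher and 8.38% lower. Nedd4l, a ubiquitin ligase that SGK1 restrains, had 10.9 ± 0.637 FPKM in Tshr-/- and 12.5 ± 0.887 FPKM in wild type (limma adjusted p = 0.24). Sgk3, a related kinase, had 0.711 ± 0.116 FPKM in Tshr-/- and 0.490 ± 0.0449 FPKM in wild type (limma adjusted p = 0.286). Mapkap1, a subunit of the mTOR complex that activates SGK1, had 10.9 ± 0.360 FPKM in Tshr-/- and 11.7 ± 0.350 FPKM in wild type (limma adjusted p = 0.334). Tsc2, through which DDIT4 restrains mTOR, had 18.6 ± 1.36 FPKM in Tshr-/- and 21.4 ± 2.17 FPKM in wild type (limma adjusted p = 0.346).

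**Figure D4:**
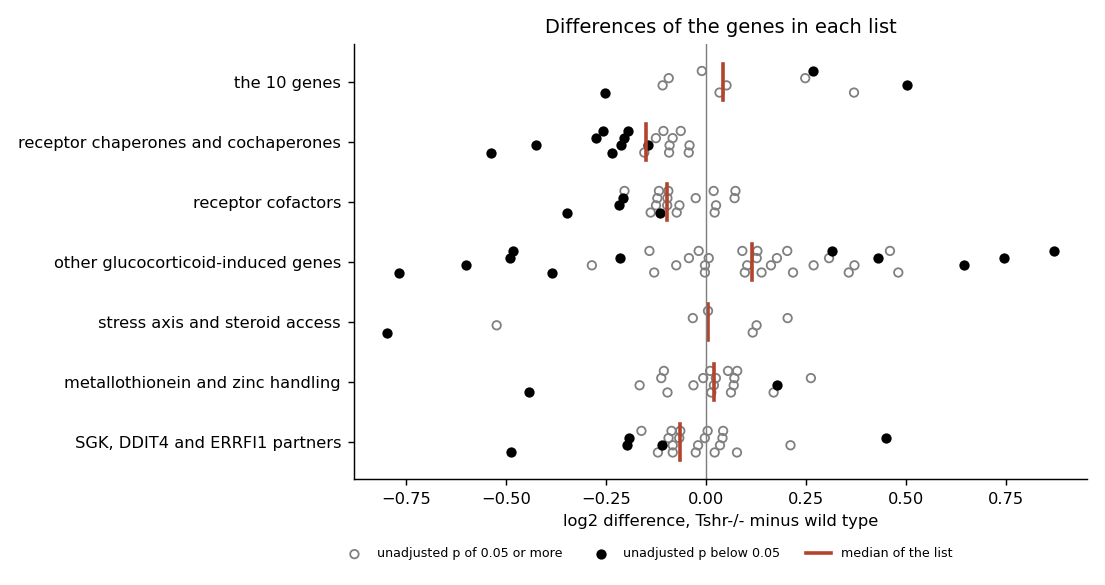
Log2 difference, Tshr-/- minus wild type, of the 10 genes and of the tested genes of 6 further lists. Each circle is a gene, filled where its unadjusted limma p was below 0.05, and the red bar is the median of the list. All 18 chaperone genes lie below 0 (15 with quantile normalization or limma voom), while the other glucocorticoid-induced genes lie on both sides of it.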

How the data were processed

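RNA of 10 hippocampus libraries was sequenced, 5 Tshr-/- and 5 wild type. Per the submitters' processing notes, the aligner was HISAT2 2.0.5, the build mm10 and the counter featureCounts 1.5.0-p3, and per the labels' protocols the kit does not mark strand. The authors deposited FPKM values for 52636 genes with gene lengths. The sources used here give neither the annotation release nor the library sizes used. The product of FPKM and gene length was a whole multiple of a step per library for 100% of values above 0 (tolerance 0.01 of a read), which gave the rebuilt reads.

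Genes with a mean of at least 0.5 FPKM (15471) were tested on log2(FPKM + 0.1) with limma 3.58.1 in R 4.3.3, with a variance trend and Benjamini-Hochberg adjustment over all of them, and called at an adjusted p below 0.05. Differences on this scale understate changes of low genes. Ratios were tested with exact permutation over libraries. Correlations used log2 levels minus genotype means and all 14400 permutations within genotype. The steps were tested on simulated data. The 10 genes and all lists were chosen with earlier results of these data known. All 10 are named, in each other list the 4 genes with the smallest p (1 of them is not reported here), and, of the 3 closest genes by pattern that the rule took, the closest. The groups share replicate numbers 1 to 5, but the labels do not say that a number links mice. Alternatives were pseudocounts of 1 and 0.01, no filter, a minimum of 1 FPKM, median-ratio scaling, quantile normalization, limma voom on rebuilt reads, no variance trend, the replicate number as a block and each library left out. The 6 libraries lowest in thalamic transcripts were compared after seeing the data. Within them the thalamus and habenula list was still higher in each Tshr-/- library than in any wild-type library.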

Additional observations from a re-analysis of the deposited data

Results flagged for a closer look

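In wild type, Sgk1 was 21.6 FPKM in library 3, far from 12.2 to 14.3 FPKM in the other 4 libraries. In Tshr-/-, the ratio of Mt1 to Mt2 was 30.5 in library 1, far from 19.8 to 22.6 in the other 4. A gap this large relative to the range is found by chance in about 1 in 20 groups of 5, and 24 groups were looked at.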

How the results depend on the processing

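None of the 10 genes was called in any of the 20 alternatives. Mt2 and Zbtb16 kept their direction and an unadjusted p below 0.05 in all of them (adjusted p of 0.236 to 0.511 and 0.142 to 0.455). Mt1 stayed higher in all, with an unadjusted p below 0.05 in 13 of 21 fits, and Fkbp5 stayed lower in all. The count of all called genes, 2 in the main analysis, was 14 with a pseudocount of 0.01, 4 with no filter, 13 with a minimum of 1 FPKM, 13 with median-ratio scaling, 4 with quantile normalization, 9 with limma voom, 1 with no variance trend and 0 to 9 with a library left out.

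Some differences changed sign. Nr3c1 had a log2 difference of 0.0018 with median-ratio scaling, 0.025 with quantile normalization and 0.060 with limma voom. The median of all genes tested was 0.0018, -0.0029 and 0.060 in these fits in turn. In the main fit it was -0.010, beside -0.011 for Nr3c1. Thus Nr3c1 lay at that median in the main fit, with median-ratio scaling and with limma voom. Among the 6 libraries lowest in thalamic transcripts the log2 difference was 0.047 for Nr3c2, -0.0021 for Tsc22d3, -0.16 for Sgk1, -0.046 for Errfi1, -0.055 for Ddit4 and 0.083 for the ratio of Nr3c2 to Nr3c1. With a library left out it ran from -0.067 to 0.050 for Nr3c1, -0.24 to 0.012 for Nr3c2, 0.17 to 0.63 for Sgk1, 0.071 to 0.43 for Tsc22d3, -0.046 to 0.13 for Errfi1, -0.064 to 0.16 for Ddit4, -0.29 to 0.044 for that ratio and -0.35 to -0.16 for the ratio of Mt1 to Mt2. The causes were not tested.

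Pairs of the 10 past the adjustment numbered 0, and 0 to 1 with a library left out (Nr3c2 with Tsc22d3 without Tshr-/- library 5), as did pairs of a gene and a marker list (1 without Tshr-/- library 3). In the stress axis list 0 genes were called, 0 to 1 with a library left out. With the replicate number as a block, 1 gene of that list was called (Crhbp) and none of the 10. Deviations of libraries with the same number correlated by -0.065 to 0.3, so the numbers were not taken as pairs. Mt2 had 48 reads in its lowest library, so counting error adds to its spread. Its coefficient of variation was 18.1% in Tshr-/- and 22.6% in wild type. How much of that spread is counting error was not tested.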
